A study of Mus musculus with 14 samples.

Results

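Nfasc encodes neurofascin, and it was followed here through the RNA and the H3K27ac landscape of Y1 mouse adrenocortical cells given serum with or without fibroblast growth factor 2 (FGF-2). It was 1 of 24465 genes in the RNA count tables and 1 of 10374 genes with enough reads to be tested. In the H3K27ac table it had 2 annotated regions of 40772, and 14 regions in all lay within 200 kb of the gene body. Nfasc was chosen by its measured values in these libraries: its RNA and 1 of its H3K27ac regions were both known to be lower with FGF-2. Those differences are therefore given as a description, without a test, and support nothing by themselves.

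Y1 is an established line from a mouse adrenocortical tumour. All cells had been kept without serum for 48 h before a 5 h stimulation. The control group received 10% fetal bovine serum (FBS), and the other group received the same serum plus 10 ng/ml FGF-2, so the groups differ by the growth factor. No unstimulated cells were analysed here. Poly(A) RNA was sequenced from 3 libraries per group and chromatin precipitated for H3K27ac gave 2 libraries per group, each paired with an input. Nothing in the labels says that the libraries came from separate cultures, so every p-value below measures only the spread between these samples.

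Neurofascin is a transmembrane adhesion protein of the immunoglobulin superfamily and belongs to the L1 family with L1cam, Chl1 and Nrcam. Its cytoplasmic tail binds ankyrins, which tie it to the spectrin skeleton. In neurons it gathers sodium channels at the axon initial segment and at nodes of Ranvier, while a glial isoform faces the axonal contactin and Caspr proteins at the paranode. H3K27ac, acetylated lysine 27 of histone H3, marks active promoters and enhancers.

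The gene covers chr1:132564690-132741848 of mouse GRCm38 (mm10) on the minus strand, 177159 bases in the RefSeq annotation, and its transcripts therefore run from high to low coordinates. RefSeq promoter entries were matched for 2 annotated starts, at positions 132642858 and 132707326. The 250 bases before each start are printed because no H3K27ac peak was called near either of them in any library, as described further on. They are written on the gene's strand, 5′ to 3′, from chr1:132642859-132643108 for the start 1 entry and chr1:132707327-132707576 for the start 2 entry, with the only motif match in capitals.
Nfasc start 1: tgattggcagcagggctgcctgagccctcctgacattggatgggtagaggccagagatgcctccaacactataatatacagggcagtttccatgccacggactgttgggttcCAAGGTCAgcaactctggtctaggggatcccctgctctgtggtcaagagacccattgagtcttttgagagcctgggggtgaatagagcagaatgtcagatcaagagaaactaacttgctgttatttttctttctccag
Nfasc start 2: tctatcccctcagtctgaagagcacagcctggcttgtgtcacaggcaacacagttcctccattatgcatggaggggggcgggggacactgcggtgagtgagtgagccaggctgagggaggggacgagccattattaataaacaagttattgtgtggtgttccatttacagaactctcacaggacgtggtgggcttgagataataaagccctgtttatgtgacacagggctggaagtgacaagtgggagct

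The motifs searched on both strands were CAAGGTCA for NR5A factors such as SF-1 (the steroidogenic nuclear receptor of adrenal cells), TGANTCA for AP-1, CCGGAA for ETS, GGAATG for TEAD, TGACGTCA for CRE-binding factors, CACGTG for E-box factors and TATAAA for a TATA box. None of these motifs contains another. The single match was CAAGGTCA, on the gene's strand at bases 113 to 120 of the start 1 window, 138 bases before the start. Among 32851 mouse promoter windows of the same length, 1.33% held CAAGGTCA. The shares for the unmatched motifs were 6.75% for TGANTCA, 12.0% for CCGGAA, 12.6% for GGAATG, 1.55% for TGACGTCA, 6.02% for CACGTG and 12.4% for TATAAA. GC content was 50.4% and 52.0% for the start 1 and start 2 windows, against a median of 52.4%, and the windows held 1 and 4 CpG dinucleotides against a median of 6. The start 1 window ends in a run of pyrimidines followed by ag, the letters usual before a splice acceptor, and whether RNA begins at that position was not tested. A letter match describes these windows only.

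Nfasc RNA was present in every library and was lower in all 3 FGF-2 libraries. With serum alone the raw counts were 169, 154 and 65, and with FGF-2 they were 18, 19 and 11. Scaled to library size with TMM factors, serum libraries had 16.2, 16.4 and 10.8 CPM (counts per 1000000 reads in genes) and FGF-2 libraries 1.75, 1.68 and 1.99. The groups did not overlap, and the lowest serum library was 5.42 times the highest FGF-2 library. Serum library 3, the shallowest, had the lowest serum level, while the FGF-2 libraries lay close together. Means were 14.4 ± 3.17 CPM with serum and 1.81 ± 0.164 CPM with FGF-2 (SD, n = 3). The fitted log2 fold change, FGF-2 over serum, was -3.02 ± 0.24 (SE), which is 8.13-fold higher with serum alone. This was the 23rd lowest log2 fold change of the 10374 tested genes, whose median was -0.02.

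For scale, 24.2% of the tested genes were called lower and 22.1% higher with FGF-2 by edgeR's quasi-likelihood test at a Benjamini-Hochberg adjusted p of 0.05. Groups that did not overlap were found for 57.5% of them, so separation of the libraries alone is common in these data. In the authors' deposited DESeq2 table, Nfasc had a log2 fold change of -3.01 with a standard error of 0.334 and a base mean of 68.4. Counts per gene do not separate the neuronal from the glial isoform. Whether the counting used strand is not given in the sources used here. Reads from the lncRNA genes Gm46157 and Gm10538, which lie inside Nfasc, cannot be told apart from it by that means, although Gm10538 itself was listed at 0 in all 6 libraries. In bulk RNA of this kind, fewer cells with a transcript and less transcript per cell cannot be told apart.

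**Figure D1:**
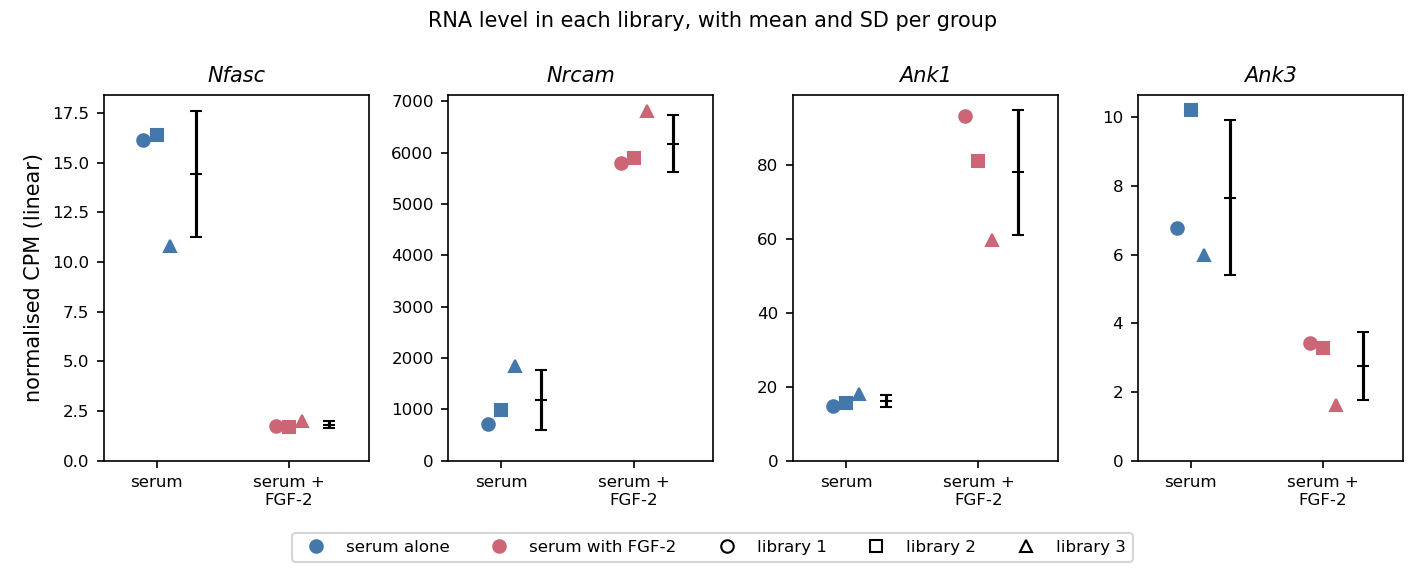
RNA level (normalised CPM, linear axes from 0, a separate scale in each panel) of Nfasc, Nrcam, Ank1 and Ank3 in the 3 serum libraries (blue) and the 3 FGF-2 libraries (red), with black bars for mean and SD. Nfasc falls from between 10.8 and 16.4 CPM to below 2 in every FGF-2 library, and Ank3 is also lower, while Nrcam and Ank1 are higher.

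H3K27ac at Nfasc was concentrated in a single region with serum alone, and that region was almost empty of reads with FGF-2. It lies at chr1:132594921-132596424, 1504 bases, and the authors' table places it in exon 23 of 27 of the annotated transcript, 46434 bases downstream of the start 1 position. Its deposited signals were 116 and 89.4 in the serum libraries and 2.85 and 6 in the FGF-2 libraries. Converted back to whole reads these are 126 and 107 against 3 and 6, a sum of 233 against 9. The groups stand far apart, and both FGF-2 values are close to the floor of the table. Serum over FGF-2 was 23.3-fold in summed reads scaled to depth, with an exact 95% interval of 12.0 to 51.5 that covers counting error only. The mean signals, 103 and 4.43, gave a log2 ratio of -4.54, and the authors' deposited table gives the same log2 fold of -4.54.

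Of the 40772 regions, 9.98% passed the authors' false discovery rate of 0.05 in either direction and 1.64% were lower by it. The exon 23 region was picked on this contrast, so nothing is read from its own call. The authors' own label for lower regions was carried by 502 regions and that for higher regions by 2924. The exon 23 region had the 2nd lowest fold of all, between a region annotated to Gm19990 at -4.89 and a region annotated to D030025E07Rik at -4.45, where the median of the 502 lower regions was -1.54. Its serum signal was above that of 74.0% of all regions, but 139 of the lower regions had a higher one, and the medians were 35.5 for all regions and 68.0 for the lower ones. It was thus a moderately strong region with serum alone, of above median width (1504 against 792 bases). Among 7096 other regions whose mean serum signal lay within 1.5 times of it, the authors' folds ranged from -2.78 to 2.51 with a median of 0.03. Of those, 212 (2.99%) were below -1 and 13 below -2. Exonic regions were a small class, with 1631 in the table. Of these, 33 (2.02%) carried the authors' lower label, beside 502 of all 40772 regions.

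The peaks that the authors called in each library against its own input describe the same place at finer scale. In serum library 1 a single peak of 1352 bases, chr1:132594962-132596313, reached a pileup of 25 and a fold enrichment of 12.8 over background, with a −log10 q of 24.1. In serum library 2 the area was split into a peak at chr1:132594921-132595855, with pileup 30, fold enrichment 14.5 and −log10 q 29.8, and a weaker one at chr1:132596030-132596424, with fold enrichment 7.01 and −log10 q 9.40. The summits of the main peaks in the serum libraries, at 132595730 and 132595715, were 15 bases apart. Neither FGF-2 library had a peak there, although these libraries had more peaks in all (50317 and 46712) than the serum libraries (44340 and 41975).

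The other Nfasc region sits at the opposite end of the gene from its starts and behaved differently. It spans chr1:132565491-132565822, 332 bases in what the authors' table annotates as the 3′ UTR, 77036 bases downstream of the start 1 position. Its signals were 6.45 and 6.69 with serum and 9.51 and 24 with FGF-2. These are 7, 8, 10 and 24 reads, so only FGF-2 library 2 stood above the rest. The authors' deposited log2 fold was 1.35 with a false discovery rate of 0.377. Peaks were called near it in serum library 1 (fold enrichment 4.02 and, for a neighbouring peak, 4.43) and in FGF-2 library 2 (7.22). Its size rests on that 1 library: without FGF-2 library 2 the log2 ratio of the means was 0.53, in the same direction. Peaks within the gene body numbered 3 and 2 in the serum libraries and 0 and 1 in the FGF-2 libraries. The 2 regions together cover 1.04% of the gene.

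No peak was called at either of the 2 start positions matched, nor at the 5′ end of the annotated gene, 132741848, which lies beyond both. The peak nearest to the start 1 position in any library was the exon 23 region itself, 46434 bases away, and it was 110902 bases from the start 2 position. Toward the 5′ side the next region in the table, annotated to Mdm4, lay 423005 bases beyond the exon 23 region at chr1:133019429-133020917. Between them, only 1 peak was called in any library. It was in serum library 1, at chr1:132977733-132977896, 235885 bases beyond the 5′ end of Nfasc, with a fold enrichment of 3.94. Lack of a called peak is a matter of depth and threshold, and these libraries held 11840994 to 14156846 fragments. Inputs held 12241177 to 15672630 fragments, except 110273836 for serum library 2, so its peaks were called against a deeper background than the others. By comparison, 79.7% of the 1666 tested genes with a mean serum level between 9.63 and 21.7 CPM, within 1.5 times that of Nfasc, had a region within 1 kb of a start in the authors' annotation, and 20.3% had none. Over all tested genes the share with such a region was 79.0%.

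**Figure D2:**
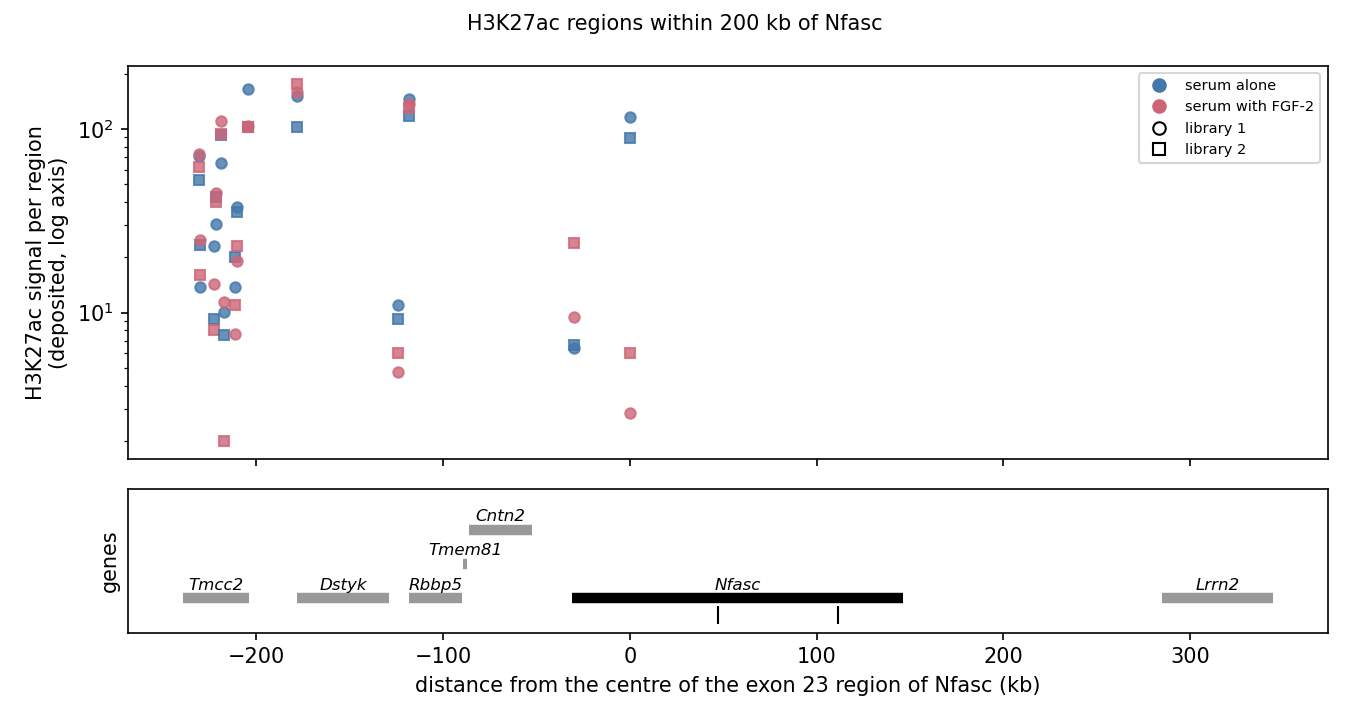
H3K27ac signal (deposited values, log axis) of the 14 regions within 200 kb of Nfasc in 2 serum (blue) and 2 FGF-2 libraries (red), by distance from the centre of the exon 23 region in kb, with protein-coding genes below and the 2 annotated Nfasc starts as ticks. At 0 the serum points sit at 116 and 89.4 and the FGF-2 points at 2.85 and 6, while at the Tmcc2, Dstyk and Rbbp5 promoters the colours overlap or lie close, and no region lies to the right.

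The other 12 regions of the window all lay on the 3′ side of Nfasc, toward Tmcc2, Dstyk and Rbbp5, and 0 of 12 passed the authors' false discovery rate, where 9.98% of all regions did. Their deposited log2 folds ran from -0.91 to 0.40 and the lowest false discovery rate was 0.405. Rbbp5 encodes a core subunit of the MLL histone H3 lysine 4 methyltransferase complexes. The region over its promoter, chr1:132476394-132478008, had signals of 145 and 117 with serum and 137 and 130 with FGF-2, a log2 fold of 0.02. At the promoter of Dstyk, a dual serine/threonine and tyrosine kinase gene, chr1:132416687-132418280 had 151 and 102 with serum and 159 and 176 with FGF-2, a log2 fold of 0.40. The Tmcc2 promoter region, chr1:132390231-132392282, had 166 and 103 with serum and 104 and 103 with FGF-2, a log2 fold of -0.38. At all 3 promoters the signal with FGF-2 was above 100. Narrowing the window to 100 kb left 4 regions, 2 of them outside Nfasc.

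At the edge of the window, the outermost region inside it was in Tmcc2, 199350 bases from Nfasc, with signals of 70.9, 52.7, 73.2 and 62 in serum 1, serum 2, FGF-2 1 and FGF-2 2. The first outside on that side was also in Tmcc2, 200250 bases away, with 8.29, 11.7, 13.3 and 8. On the 5′ side the first outside was the Mdm4 region, 277581 bases from the gene, with 70.9, 49.3, 25.7 and 21 and a deposited log2 fold of -1.36. The Mdm4 region was the nearest other one with the authors' lower label. The nearest with their higher label was in Lemd1, chr1:132199629-132200967, 393954 bases from the exon 23 region, with a log2 fold of 1.26.

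Among neighbouring genes, 1 of 3 that could be tested was called, and it was lower, where 24.2% of all tested genes were lower and 22.1% higher. RefSeq lists 14 genes within 200 kb of Nfasc, 7 of which were in the count tables. Tmcc2, which encodes a transmembrane and coiled-coil domain protein, had 42.2, 50.1 and 52.8 CPM with serum and 26.4, 25.1 and 17.7 with FGF-2. The groups did not overlap, and the log2 fold change was -1.04 ± 0.16 (adjusted p = 0.000598, edgeR with Benjamini-Hochberg adjustment). Dstyk had 34.3 ± 2.16 and 31.2 ± 5.24 CPM (SD, n = 3), overlapping levels with a log2 fold change of -0.12 (edgeR adjusted p = 0.475). Tmem81, an immunoglobulin-domain gene between Rbbp5 and Cntn2, had 3.74 ± 0.236 and 2.82 ± 0.277 CPM, and its log2 fold change of -0.39 ± 0.24 did not pass (edgeR adjusted p = 0.208). With library totals in place of TMM factors, which moved the median of all genes to -0.36, Dstyk (-0.46) and Tmem81 (-0.72) also passed.

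Of the remaining neighbours, Cntn2 encodes a contactin of the node region and had 4, 2 and 0 counts with serum and 2, 1 and 0 with FGF-2. Lrrn2, a leucine-rich repeat membrane protein gene, was at 0 in all 6 libraries. Rbbp5 had only 0, 0 and 1 counts with serum and 0, 1 and 2 with FGF-2 despite the acetylated promoter, and the reason was not tested. At these depths the limit set by 0 counts lay between 0.236 and 0.533 CPM. It is 3 counts of the library total, without the TMM factors used for the other CPM values.

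Nrcam, another ankyrin-binding member of the L1 family and the only relative that could be tested, was higher with FGF-2. It had 705, 989 and 1841 CPM with serum and 5801, 5904 and 6811 with FGF-2. Every FGF-2 library was above every serum library, with serum library 3 the highest of its group. Its log2 fold change was 2.39 ± 0.33 (adjusted p = 0.000781, edgeR with Benjamini-Hochberg adjustment). Across all other settings it stayed between 2.07 and 2.87. L1cam summed to 10 counts with serum and 6 with FGF-2, too few to test, and Chl1 was listed at 0 in every library.

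The wider lists hold genes of proteins that bind neurofascin or occupy the same membrane sites, and also other immunoglobulin adhesion genes. Their tested members moved in both directions. Of 92 listed genes 85 were in the count tables, 28 of those at 0 in all libraries. Apart from Nfasc, 37 were tested, and 10 were higher, 13 lower and 14 not called, with a median log2 fold change of -0.14 against -0.02 for all tested genes. Those shares stand beside the 22.1% and 24.2% called among all tested genes. With library totals the split was 6 higher and 18 lower, where 1035 of all 10374 tested genes were higher and 4675 lower. Of the 37, 18 were other immunoglobulin adhesion genes, which gave 6 higher and 7 lower. The lists were drawn up with earlier results of these data known.

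Ankyrins and spectrins, the skeleton to which neurofascin is tied, gave 1 higher and 3 lower of 8 tested. Ank3, the gene of ankyrin-G, which is the ankyrin of initial segments and nodes, had 6.79, 10.2 and 5.98 CPM with serum and 3.41, 3.27 and 1.63 with FGF-2. It was lower in every FGF-2 library, with a log2 fold change of -1.41 ± 0.30 (edgeR adjusted p = 0.00412). Ank1, the erythrocyte ankyrin gene, went the other way, from 14.8, 15.6 and 17.9 to 93.4, 81.1 and 59.9 CPM. Its log2 fold change was 2.29 ± 0.17 (edgeR adjusted p = 1.47e-05). Sptbn1, the widespread non-erythroid beta spectrin, fell from 1127 ± 56.9 to 629 ± 65.4 CPM (log2 fold change -0.84 ± 0.13). Sptbn4, the beta spectrin of initial segments and nodes, had a log2 fold change of 0.01 (edgeR adjusted p = 0.956). Sptan1, the non-erythroid alpha spectrin, had -0.28 (edgeR adjusted p = 0.121).

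Node, paranode and initial segment genes gave 0 higher and 3 lower of 5 tested, and 11 of the 19 in the table were at 0 throughout. Scn1a, a pore-forming voltage-gated sodium channel gene, had 11.9, 19.8 and 17.1 CPM with serum and 4.68, 3.27 and 3.26 with FGF-2. The groups were well separated, with a log2 fold change of -2.10 ± 0.25 (edgeR adjusted p = 0.00015). Bcan, the matrix proteoglycan brevican, had 96.6 ± 25.8 and 61.1 ± 12.8 CPM (log2 fold change -0.66 ± 0.21). The Bcan call was lost without serum library 3 (log2 fold change -0.43), FGF-2 library 1 (-0.50) or FGF-2 library 2 (-0.71).

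Contactin and Caspr genes, the families to which the paranodal partners belong, gave 1 higher and 0 lower of 3 tested. Cntnap5a, a Caspr relative, had 1.17 ± 0.583 CPM with serum and 2.95 ± 0.435 with FGF-2, a log2 fold change of 1.26 ± 0.37 (edgeR adjusted p = 0.0185). Its call was lost without serum library 1, without FGF-2 library 1 and with library totals. Cntnap1, which encodes Caspr itself, had a log2 fold change of -0.08 (edgeR adjusted p = 0.653), and Cntnap2 had -0.87 (edgeR adjusted p = 0.088). Cntn1, the contactin that pairs with Caspr, was at 0 in all 6 libraries. Of the other binding partners, Sdcbp, which encodes the PDZ protein syntenin, rose from 88.7 ± 7.67 to 193 ± 39.1 CPM (log2 fold change 1.12 ± 0.15, edgeR adjusted p = 0.000277). Fgfr1, a receptor for FGF-2, had a log2 fold change of 0.18 (edgeR adjusted p = 0.166).

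The remaining immunoglobulin adhesion genes, with 6 higher, 7 lower and 5 not called of 18, also went both ways. The largest increase was in Igsf3, from 3 summed counts to 172. Scaled to depth this is 54.7-fold, and the exact 95% counting interval runs from 18.4 to 268. Nectin3, an adherens junction protein, rose from 63.9 ± 17.4 to 242 ± 6.31 CPM (log2 fold change 1.93 ± 0.17). Pvr, a nectin-like receptor, had a log2 fold change of 1.49 ± 0.36, and its call was lost without a count filter and without FGF-2 library 3. The largest decrease was in Robo4, a roundabout receptor, from 13.7, 7.24 and 6.81 CPM to 0.39, 1.15 and 0.724 (log2 fold change -3.58 ± 0.43). Icam1, a ligand of leukocyte integrins, followed at -1.89 ± 0.30 and Robo3, another roundabout receptor, at -1.72 ± 0.25.

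**Figure D3:**
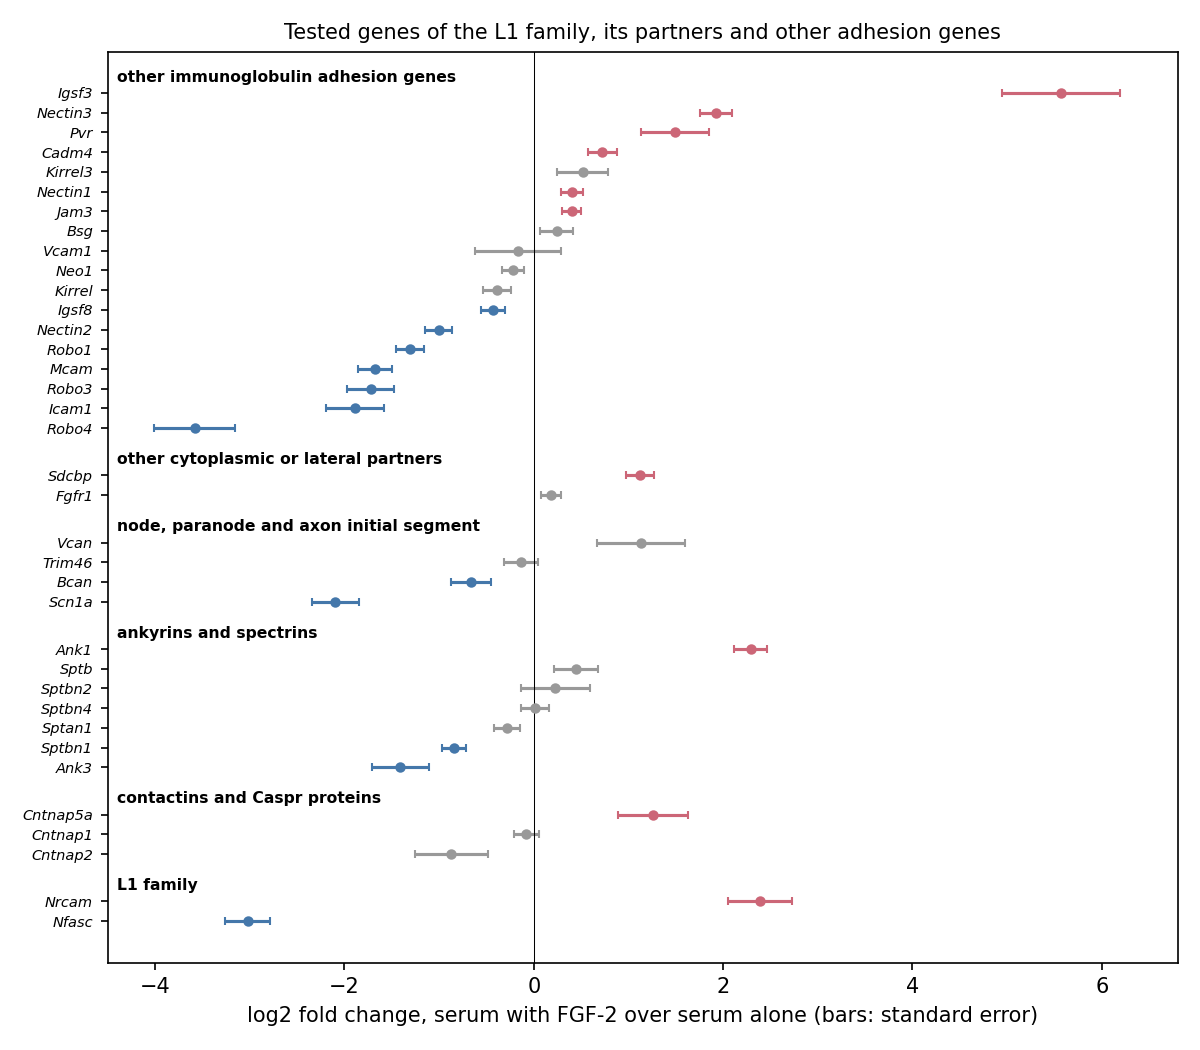
Log2 fold change (FGF-2 over serum, bars for the standard error) of tested genes of the lists, Nfasc included, grouped by list, with called higher in red, called lower in blue and not called in grey. Nfasc at -3.02 and Nrcam at 2.39 lie at opposite ends of the L1 family, the ankyrin and spectrin list and the other immunoglobulin adhesion list hold both red and blue points, and the node list holds no red one.

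Genes whose level followed that of Nfasc most closely over the 6 libraries were Impa2, Bckdk, Dlg3, Rbl2 and Haus4, each with a Pearson r of 0.998 on the log2 CPM scale. Only genes averaging 5 CPM or more were compared. Their log2 fold changes were -1.99, -0.64, -1.18, -1.37 and -1.40. Impa2, an inositol monophosphatase gene, had 29.2, 26.3 and 21.7 CPM with serum and 6.34, 6.18 and 7.24 with FGF-2, and like Nfasc it was lowest of the serum group in library 3. Rbl2 encodes a retinoblastoma-family protein and Dlg3 a synaptic scaffold protein. The 6 points share the same 2 groups and libraries, and 1419 of 8761 genes compared (16.2%) reached an r of 0.9, so the likeness describes these libraries only.

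Lower acetylation at a region and lower RNA of its annotated gene met at Nfasc, which is how the gene was chosen. Over all genes, the authors' lower label fell on regions annotated to 415 genes, of which 263 were tested in RNA. Of these 107 (40.7%) were called lower, 40 higher and 116 neither, with a median log2 fold change of -0.32. Over all tested genes 24.2% were lower and 22.1% higher, with a median of -0.02. Among the 107, Nfasc had the lowest region fold and the 8th lowest RNA fold change. Genes with nearly as low a region fold did not all have lower RNA. Mllt3 had a region fold of -4.31 with an RNA log2 fold change of 0.24, and Sestd1 -4.18 with 0.99. Ppp3ca followed at -4.1 with -0.03, Tmem176b at -4.03 with -0.12 and Rmi1 at -4.0 with -0.27. Cdc42ep2 came next at -3.93 with -2.48. In RNA, Sestd1 was called higher and Cdc42ep2 lower, and the others of these were not called.

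**Figure D4:**
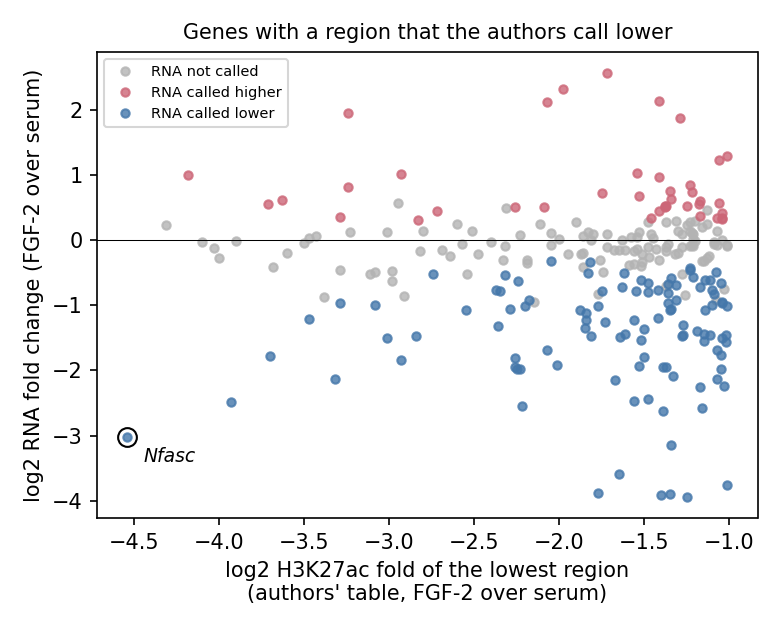
RNA log2 fold change (edgeR, FGF-2 over serum) against the authors' deposited log2 H3K27ac fold of the lowest region, for the 263 tested genes with a region of the authors' lower label. Nfasc, circled at -4.54 and -3.02, lies at the lower left, and genes with region folds near -4 spread on both sides of 0 in RNA.

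RNA libraries held 5625004 to 12696426 reads in genes, with serum library 3 the smallest. Of 12 adrenocortical markers, summing to 1359 to 2003 CPM with serum and 4665 to 7237 with FGF-2, 9 were tested and only Nr0b1 was at 0. Star (165 and 2296 CPM), Soat1 (605 and 2617) and Mrap were higher with FGF-2, Cyp11a1, Cyp11b1 and Fdxr were lower, and Nr5a1 (SF-1) was at 74.3 and 71.3 CPM and not called. Neuronal and glial markers, of cells known for neurofascin, had lower sums than the adrenocortical ones. Those sums were above the level of Nfasc itself (14.4 CPM with serum and 1.81 with FGF-2), and the cell source of its RNA was not tested. Col1a2 was listed at 0 beside an abundant Col1a1, so a 0 in these tables is not read as absence of a transcript, and how the counting bears on it was not tested. Neuronal markers summed to 102 to 112 CPM with serum and 87.8 to 129 with FGF-2, nearly all from Map2, with Syt1, Nefm and Elavl4 at 0. Of the 9, Map2 alone could be tested, and it was not called. Schwann cell and oligodendrocyte markers summed to 61.0 to 97.3 CPM with serum and 29.0 to 41.7 with FGF-2. That sum was led by Pmp22, with Mag and Olig2 at 0. Of 9 listed, 3 were tested, and Pmp22 was lower. It moved with Nfasc, and its part in the result was not tested. Chromaffin markers summed to 5.35 to 7.02 and 1.5 to 2.72 CPM, with Th and Dbh at 0 and Ddc, the only 1 of 7 that was tested, lower. Fibroblast and capsule markers, led by Col1a1, summed to 3023 to 3810 and 2215 to 3082 CPM, with 1 of 3 tested (of 8 listed) lower. Endothelial and blood markers summed to 5.45 to 8.51 and 4.32 to 5.07 CPM, with Pecam1, the only 1 of 8 that was tested, lower.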

How the data were processed

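RNA (3 libraries per group) and H3K27ac (2 per group, each with an input) were measured in Y1 cells grouped by the treatment label. Nfasc and all gene lists were chosen with earlier results of these data known. Per the submitters' processing notes, which name tools without their roles, the authors used HTSeq 0.10.0, STAR 2.5.2a, DESeq2, ChIPseeker, DiffBind and MACS2 2.2.6 with build mm10. Neither the annotation nor the strand setting of the counting is stated.

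RNA values were raw counts per gene, deposited by the authors. Unassigned or ambiguous reads (37.0% to 43.2% of a library) were left out. The authors' deposited tables also give log2 fold changes and p-values or false discovery rates. Per the file headers, MACS2 peaks were called in each library against its own input at q 0.01, with fold (a ratio), pileup signal, summit score and −log10 q. The authors' region table holds a normalised signal per library. Whole reads were recovered from it, with 99.1% to 100% of values whole within 0.02 reads, by a factor estimated per library. A count of 1 read was its floor, and whether input was subtracted is not stated.

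Counts were tested with edgeR 4.0.16 in R 4.3.3 (TMM, filterByExpr by group, robust quasi-likelihood, Benjamini-Hochberg adjustment at 0.05), after a check on simulated data. Region values are the authors', with limma 3.58.1 on log2(signal + 1) and edgeR on recovered reads as alternatives. For RNA, DESeq2 1.42.0, limma-voom, other scalings, no filter, a replicate block and leaving out each library were tried. A count of 0 is read as up to 3 counts, and intervals cover counting error only. Values of some list members are not reported here. Named were Nfasc, its neighbours within 200 kb, L1 family members, up to 3 called genes per direction of each list by size of change, and the 5 genes most correlated with Nfasc. A few uncalled or unmeasured list genes, Mllt3, Sestd1, Ppp3ca, Tmem176b, Rmi1, Cdc42ep2 and single markers were named after their values were seen. Replicates were kept separate, since a chi-square test over their counts gave at least 2.47 per degree of freedom. Promoter sequences and positions came from RefSeq tables of GRCm38.p6, the same coordinates as mm10, without a genome sequence, so the bases of the exon 23 region are not shown.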

Additional observations from a re-analysis of the deposited data

How the results depend on the processing

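The Nfasc log2 fold change (-3.02) ranged over single left-out libraries from -3.18 to -2.93 and was -3.36 with library totals, which moved the median of all genes to -0.36, and -3.04 with the replicate block. RNA libraries of the same number correlated at -0.10, 0.07 and 0.38 in their deviations from the group means, so the numbers were not taken to pair them. The block gave 11 higher and 13 lower genes of the partner and adhesion lists. Counts for these lists (10 higher, 13 lower) ranged over left-out libraries from 8 to 11 and from 10 to 13. Library totals gave 6 higher and 18 lower, where 1035 of all 10374 tested genes were higher and 4675 lower. Library totals called 3 neighbouring genes lower instead of 1, and left-out libraries gave 0 higher and 1 lower throughout. The log2 ratio of the exon 23 region (-4.54) was -2.97 with 10 added to each signal and ranged over left-out libraries from -5.17 to -4.10, and that of the region near the end of the gene (1.35) ranged from 0.53 to 1.87. In limma over all regions, those near Nfasc called were 0 to 1 higher and 1 to 2 lower when a library was left out. Same-numbered H3K27ac libraries correlated at -0.22. With the block, limma called 3997 regions higher and 947 lower over the whole table, against 6230 and 2194 with crossed numbers, an alternative added after seeing the data, and both left 1 region near Nfasc lower and 0 higher. Serum library 1 had 8 rather than 19 peaks in the window at a −log10 q of at least 5. The FGF-2 counts of 3 and 6 reads in the exon 23 region, and of 11 to 19 for Nfasc RNA, limit the precision of both folds.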
